A study of Homo sapiens with 2 samples.

Results

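The 72 genes described here encode protein subunits of the respiratory chain and, for MT-ATP6 and MT-ATP8, of the ATP synthase. They are the 13 protein-coding genes of human mitochondrial DNA and 59 protein-coding nuclear genes. The choice was made by gene name among the 60711 genes listed, with earlier results of these data known. The nuclear genes are 37 subunits of complex I (7 of its catalytic core and 30 accessory), 4 of complex II, 8 of complex III and 10 of complex IV. NDUFA4 is counted with complex I because of its name, although it is known as a subunit of complex IV. The study transfected A549 cells, a human lung adenocarcinoma line, with a control siRNA or with an siRNA against MILIP, a long noncoding RNA also called MAFG-AS1, and harvested RNA after 48 h. It sequenced 1 library of each, so the 2 libraries differ in 1 transfection with 1 siRNA, named si-MILIP.2 by the study. Loss of MILIP and effects of that siRNA sequence on other transcripts cannot be told apart.

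The respiratory chain passes electrons from NADH and succinate to oxygen and pumps protons across the inner mitochondrial membrane. Complex I oxidises NADH, complex II oxidises succinate, complex III passes electrons from ubiquinol to cytochrome c, and complex IV reduces oxygen. Complex V, the ATP synthase, uses the proton gradient. Complexes I, III, IV and V are built from subunits of both genomes, while complex II is wholly nuclear. Mitochondrial DNA is transcribed from both strands into long precursors, from which the tRNAs that lie between most genes are cut out, whereas each nuclear subunit has a promoter of its own.

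The depth was 20300800 listed reads with control siRNA and 19460956 with MILIP siRNA. Values are on the CPM scale, on which 1 read is worth 0.0501 and 0.0503, and the lowest value above 0 corresponds to 20 reads. Log2 ratios are MILIP siRNA over control siRNA after 1 was added to each value, for the 13521 genes whose mean value reached 1, with a median of −0.03. The limits given are 95% Clopper-Pearson limits of the ratio with nothing added, and they cover no more than counting error. With 1 library per condition no test between conditions was possible. MILIP itself had a value of 29.5 in the control and 3.22 after MILIP siRNA, a log2 ratio of −2.85 with limits of −3.59 to −2.82. All 8 markers of a lung epithelial line were present, with log2 ratios of 0.03 to 0.96, while the 3 endothelial, 3 fibroblast and 3 muscle markers were at 0 or without a value. EPCAM was the lowest of the 8, at 2.65 and 5.93, from 53 and 118 reads. Of 4 leukocyte markers only CD14, which some epithelial cells also express, had values, 4.46 and 9.60.

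The mitochondrial messages stood lower than the nuclear ones by a small amount. The 13 mitochondrial genes had a median log2 ratio of −0.21, with a range of −0.57 to 0.09, and the 57 nuclear genes that passed the filter on low values had a median of 0.02, with quartiles of −0.19 and 0.14. The difference of the 2 medians was −0.22, and the mitochondrial values lay inside the nuclear range. By their means, −0.21 and −0.03, both sets lay below 0. Of the mitochondrial genes 11 of 13 lay below 0, beside 27 of the 57 nuclear genes and 52.2% of all genes. A bulk library cannot tell less of an RNA per cell from fewer cells that hold it.

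Few respiratory chain genes moved far. Of the 70 that passed the filter 1 was at least 1.5-fold higher after MILIP siRNA, where 11.1% of all genes were. COX6B1 and COX5B were at least 1.5-fold lower, 2 of 70 beside 13.8% of all genes. At 1.2-fold, 9 of the 70 were higher, all of them nuclear, beside 26.4% of all genes, and 14 were lower, 5 mitochondrial and 9 nuclear, beside 31.1%. By counting limits, 22 of the 70 lay above 0 and 31 below, beside 30.1% and 36.5% of all genes. These limits are narrower for genes with more reads. The median control value was 109 for the 70 and 28.1 for all genes, so the shares compare unlike depths. Of the other nuclear genes, NDUFV2, a core subunit of complex I, had a value of 1.85 in the control and was listed at 0 after MILIP siRNA, and the accessory subunit NDUFA7 was listed at 0 in both libraries. Only 17.1% of the NDUFV2 transcript and 21.3% of the NDUFA7 transcript are free of exons of other genes in the annotation used here, so that these values say little about either gene.

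**Figure D1:**
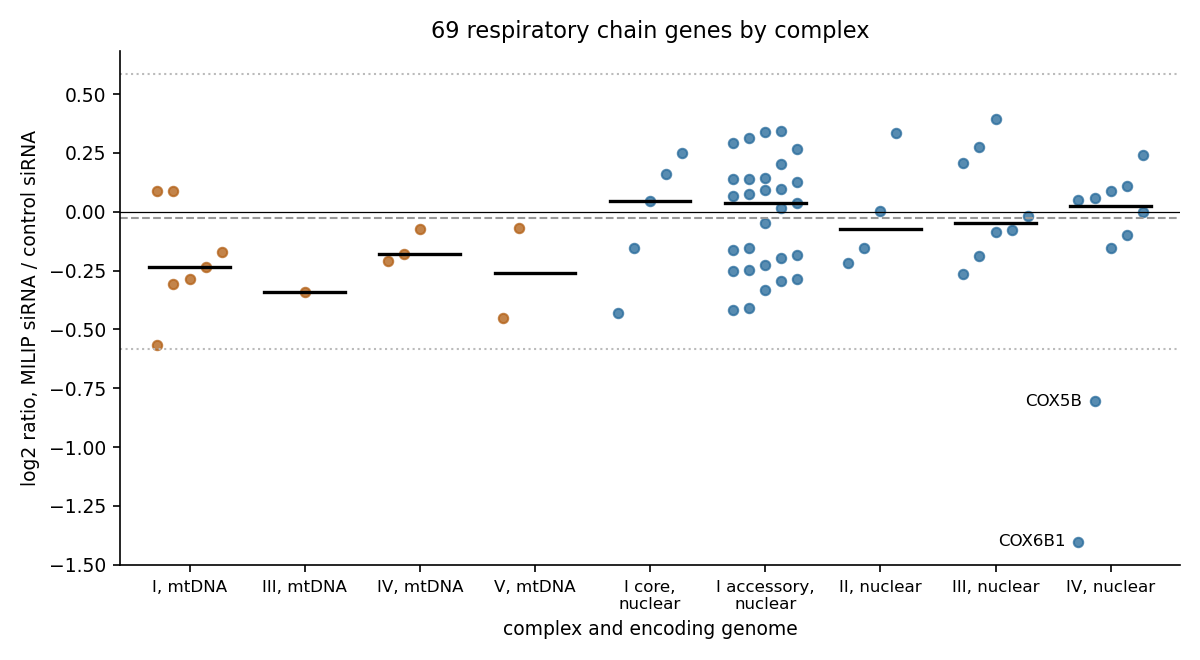
Log2 ratio of MILIP siRNA over control siRNA (vertical axis) for 69 of the 70 genes with a mean value of at least 1, by complex and encoding genome. Each point is 1 gene, black bars are medians of the genes drawn, the dashed line is the median of all genes (−0.03) and dotted lines mark 1.5-fold. The mitochondrial sets have medians between −0.34 and −0.18, the nuclear sets between −0.07 and 0.05, and COX5B and COX6B1 lie below the lower dotted line.

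Mitochondrial DNA packs its genes so tightly that neighbouring genes can share bases, which bears on how well reads can be assigned. MT-ATP8 and MT-ATP6, subunits of the membrane part of complex V, share 46 bases, MT-ATP6 and MT-CO3 share 1, and MT-ND4L and MT-ND4, membrane subunits of complex I that hold the proton path, share 7. The reference sequence of the 2 longer overlaps is shown with 20 bases on either side, the shared bases in capitals, read on the + strand of GRCh38 at chrM:8507-8592 and chrM:10740-10786.
MT-ATP8/MT-ATP6: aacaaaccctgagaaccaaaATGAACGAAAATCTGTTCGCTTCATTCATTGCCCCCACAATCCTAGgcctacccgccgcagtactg
MT-ND4L/MT-ND4: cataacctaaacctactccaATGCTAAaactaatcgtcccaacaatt
In both lines the capitals begin with the start codon of the downstream gene, and each pair lies on 1 precursor RNA.

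Among the 7 mitochondrial subunits of complex I, whose products form the proton-pumping membrane arm, 2 lay above 0 and 5 below, with a median of −0.24. MT-ND1 had values of 3221 and 3423 in the control and MILIP siRNA libraries, a log2 ratio of 0.09, with limits of 0.07 to 0.10. MT-ND2 had values of 2323 and 2473, with the same log2 ratio of 0.09. These 2 genes, the first protein genes of the heavy-strand precursor, were the only mitochondrial messages that were higher after MILIP siRNA. MT-ND3 had values of 1293 and 1148, a log2 ratio of −0.17. MT-ND4 had values of 2685 and 2279, a log2 ratio of −0.24. MT-ND4L, whose last 7 bases are also the first of MT-ND4, stood farther from 0 than any other mitochondrial gene. It was at 476 and 321, a log2 ratio of −0.57 with limits of −0.61 to −0.52. How reads that touch both genes were counted is not given in the sources used here, so the ratio of MT-ND4L is uncertain. MT-ND5 was at 193 and 156, a log2 ratio of −0.31. MT-ND6, alone among the 13 in being transcribed from the other strand, was at 109 and 88.9, a log2 ratio of −0.28 with limits of −0.38 to −0.20, within the range of the 12 others.

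The 3 mitochondrial subunits of complex IV form its catalytic core, and in both libraries they had the highest levels per kilobase of the 13 genes. MT-CO1, which carries the heme and copper centre where oxygen is reduced, was the largest, with values of 14842 and 12844 and a log2 ratio of −0.21. It held 37.7% of all reads of the 13 genes in the control library and 35.8% after MILIP siRNA. MT-CO2, which accepts electrons from cytochrome c, was at 4641 and 4097, a log2 ratio of −0.18. MT-CO3 was at 6769 and 6427, a log2 ratio of −0.07. The median of the 3 was −0.18.

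MT-CYB, cytochrome b, is the sole mitochondrial subunit of complex III. Its values were 127 and 99.8, a log2 ratio of −0.34 with limits of −0.43 to −0.26. For complex V, MT-ATP6 was at 2638 and 2517, a log2 ratio of −0.07. MT-ATP8 was at 16.3 and 11.7, from 326 and 232 reads, with a log2 ratio of −0.45 and limits of −0.73 to −0.24. Per kilobase MT-ATP8 had 78.9 in the control where its partner on the same message, MT-ATP6, had 3874. Counters can leave out reads that touch 2 genes, but how such reads were counted is not given in the sources used here, so the level of MT-ATP8 is uncertain. Without the 4 genes of these 2 pairs the mitochondrial median was −0.18.

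On the deposited scale the counting limits of all 13 ratios, narrow at these depths, did not span 0, and none of the ratios reached 1.5-fold. These limits do not cover the choice of scaling. Over the scalings, pseudocounts, filters and trends tried, the log2 ratio of MT-ATP6 ran from −0.07 to 0.02. The 12 heavy-strand genes are drawn in the order in which they are transcribed in the plot of mitochondrial genes. Over these 12 the log2 ratio fell with the order, with Pearson's r of −0.61 and Spearman's rho of −0.63, and without the 4 overlapping genes r was −0.81 and rho −0.76 over 8. The points share 2 libraries and 1 precursor, and the correlation is a description with no test. The ratio was also higher for genes with a higher control level per kilobase, with a rho of 0.66 over the 13. The rRNA genes, which precede MT-ND1 on the same strand, were at 33.1 and 35.3 for MT-RNR1, with limits that span 0 (−0.06 to 0.25), and at 530 and 418 for MT-RNR2, a log2 ratio of −0.34.

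**Figure D2:**
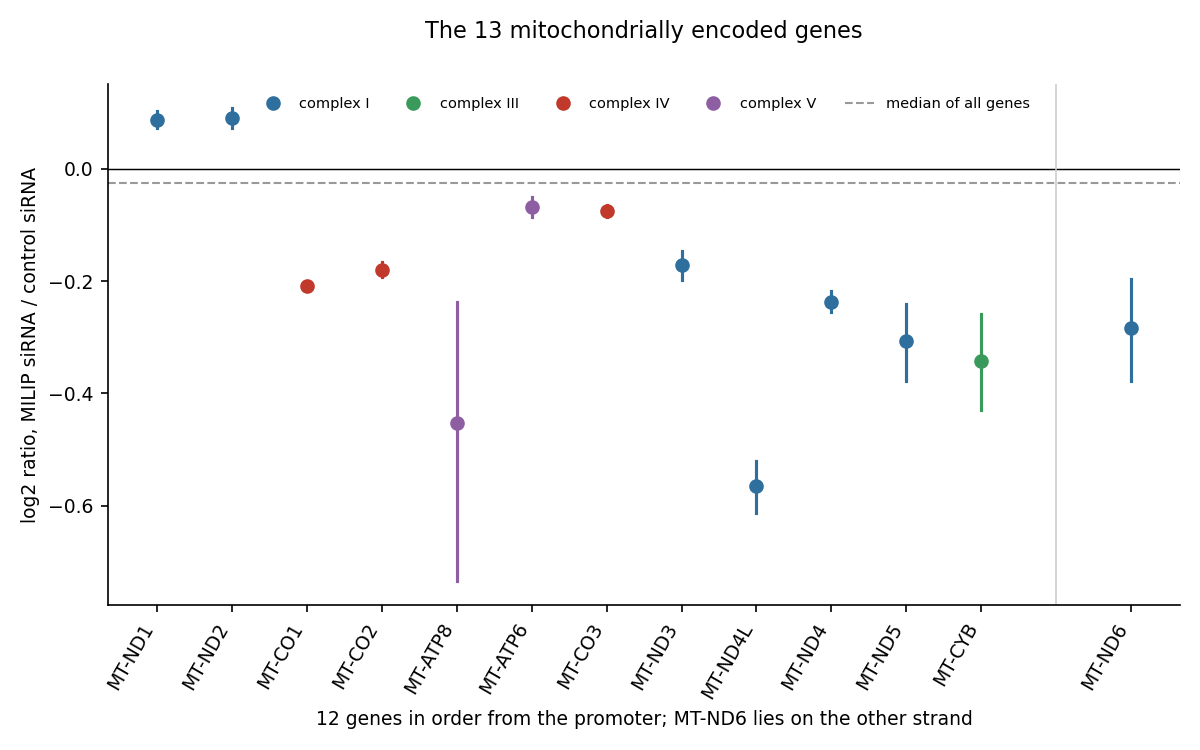
Log2 ratio of MILIP siRNA over control siRNA (vertical axis) for the 12 heavy-strand protein genes in order of transcription and, on the right, MT-ND6 of the other strand. Points are the ratios with a pseudocount of 1 and vertical lines their 95% counting limits, smaller than the point for the deepest genes. MT-ND1 and MT-ND2 lie at 0.09, and the other 11 between −0.57 and −0.07.

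Summed over the 13 genes, mitochondrial messages made up 3.87% of listed reads in the control (limits 3.86 to 3.88) and 3.67% after MILIP siRNA (limits 3.66 to 3.68). The log2 ratio of the summed values was −0.13, beside −0.06 for the summed values of all genes that passed the filter. The 59 nuclear genes made up 0.560% and 0.578%. These sums rest mostly on MT-CO1, MT-CO3 and MT-CO2, while the median of −0.21 weighs each gene alike.

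Nuclear DNA holds partial copies of mitochondrial genes, to which reads of either origin could map. Of 13 such copies looked for, 3 had values, MTATP6P1 at 271 and 216, MTND2P28 at 87.8 and 71.4, and MTCO1P12 at 7.41 and 5.58. Their log2 ratios were between −0.35 and −0.29, and how much of these values stems from mitochondrial RNA was not tested.

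Transcript base composition moved with the ratio in these libraries. Across 13398 genes, which are not independent replicates, the log2 ratio rose with transcript GC content, with Spearman's rho of 0.29. The mitochondrial genes have 39.6% to 47.7% GC, and the 4293 genes in that range had a median of −0.14, beside −0.03 for all genes. With the GC trend removed, the mitochondrial median was −0.11, the nuclear median 0.04 and their difference −0.16. MT-ATP6 then lay at 0.02, above 0, while MT-CO3 lay at −0.0015.

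Among the nuclear genes, complex IV held both members that were lower by 1.5-fold. COX6B1, which faces the intermembrane space and lies where complex IV forms dimers, had values of 306 and 115, a log2 ratio of −1.40 with limits of −1.48 to −1.34. It had the highest control level per kilobase of all nuclear members, 459, and 173 after MILIP siRNA. COX5B, a zinc-binding subunit on the matrix side, had values of 149 and 84.6, a log2 ratio of −0.81 with limits of −0.90 to −0.73. The transcripts used for both genes share no exon base with another annotated gene, and over the alternatives tried their log2 ratios ran from −1.50 to −1.35 for COX6B1 and from −0.83 to −0.75 for COX5B.

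The other 8 nuclear subunits of complex IV lay between −0.15 and 0.24, so the median of the 10 was 0.02 while their summed values had a log2 ratio of −0.18. COX4I1, a subunit that binds ATP and is taken up early in assembly, was the highest, with values of 291 and 344 and a log2 ratio of 0.24. After MILIP siRNA it had the highest level per kilobase of the nuclear members, 486. COX7A2 was at 144 and 155 and COX8A at 46.4 and 49.3, with log2 ratios of 0.11 and 0.09. COX5A, which contacts COX4I1 in the assembled enzyme, was at 187 and 168, a log2 ratio of −0.15. NDUFA4, counted in complex I here, was at 187 and 207, a log2 ratio of 0.14. The ratios spanned a wider range in complex IV than in the nuclear sets of complexes I, II and III.

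**Figure D3:**
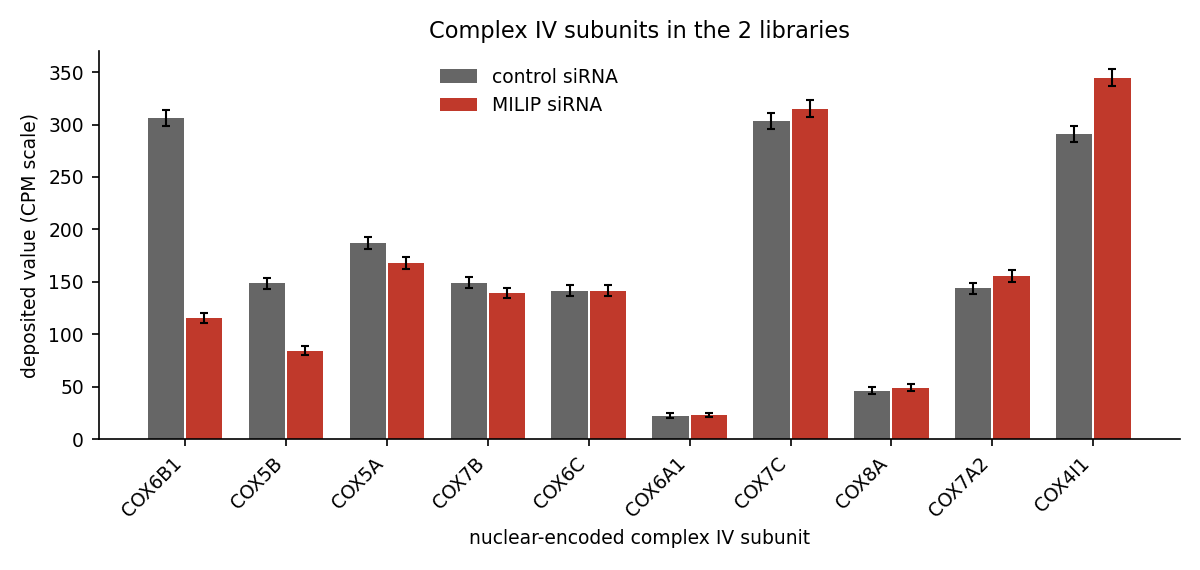
Deposited values (vertical axis, CPM scale) of the 10 nuclear-encoded complex IV subunits in the control siRNA library (grey) and the MILIP siRNA library (red). Bars start at 0 and error bars are exact 95% Poisson intervals of the reads, which cover counting error only. COX6B1 drops from 306 to 115 and COX5B from 149 to 84.6, while the other 8 lie between 0.90-fold and 1.18-fold of the control.

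The promoters of these 2 genes and of COX4I1, the highest subunit of the same complex, are shown because nuclear subunits are known targets of the factors NRF1, GABP (of the ETS family) and YY1. Each window of 300 bases runs from 250 bases before to 50 after the gene's start, from RefSeq on GRCh38.p14, all on the + strand, at chr19:35648073-35648372, chr2:97645812-97646111 and chr16:85799445-85799744. Capitals mark matches to CCGGAAG, the ETS motif, on either strand.
COX6B1: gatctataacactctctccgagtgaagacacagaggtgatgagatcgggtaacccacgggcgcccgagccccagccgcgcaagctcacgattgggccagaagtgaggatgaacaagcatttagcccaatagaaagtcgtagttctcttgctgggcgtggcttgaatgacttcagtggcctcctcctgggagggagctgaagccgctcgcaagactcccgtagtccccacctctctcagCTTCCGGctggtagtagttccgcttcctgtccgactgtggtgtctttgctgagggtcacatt
COX5B: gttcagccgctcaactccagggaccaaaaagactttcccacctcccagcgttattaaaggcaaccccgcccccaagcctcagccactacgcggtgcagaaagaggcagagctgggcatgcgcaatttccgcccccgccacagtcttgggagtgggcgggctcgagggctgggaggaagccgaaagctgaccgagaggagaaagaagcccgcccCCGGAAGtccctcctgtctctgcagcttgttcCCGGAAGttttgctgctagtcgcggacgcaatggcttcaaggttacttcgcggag
COX4I1: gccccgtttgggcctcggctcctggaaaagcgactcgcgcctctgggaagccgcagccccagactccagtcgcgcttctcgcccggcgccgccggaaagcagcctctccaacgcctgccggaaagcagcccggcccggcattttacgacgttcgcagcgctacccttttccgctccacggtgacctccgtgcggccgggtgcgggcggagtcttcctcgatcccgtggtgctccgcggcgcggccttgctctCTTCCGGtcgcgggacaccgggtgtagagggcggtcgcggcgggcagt
The ETS letters occur in all 3 windows, once each in COX6B1 and COX4I1 and at 2 places in COX5B. The 3 genes were picked by their ratios, and whether the letters bear on the ratios was not tested.

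Promoter windows were found for 50 of the 59 nuclear members, and the letters of 5 motifs were searched on both strands. The ETS letters were in 15 of the 50 (30%), beside 12.2% of 27305 genes with a window. These 27305 were not limited to genes that passed the filter, so the shares are not matched for expression. NRF1 (CGCATGCG) was in 7 (14%, beside 2.46%), YY1 (AAGATGGC) in 9 (18%, beside 3.52%), SP1 (GGGCGG) in 31 (62%, beside 48.3%) and the E-box of the c-Myc family (CACGTG) in 4 (8%, beside 8.77%). In the 3 windows shown, the letters of NRF1, YY1 and the E-box were not found. SP1 letters, not put in capitals, were in the windows of COX5B and COX4I1, and none overlaps an ETS match. The 15 members with ETS letters, COX6B1 and COX5B among them, had a median log2 ratio of −0.15 and the 33 others that passed the filter 0.05. For NRF1 the medians were 0.05 with the letters (7 members) and −0.02 without. With and without the letters they were −0.05 and 0.01 for YY1 and 0.05 and −0.05 for SP1. For the E-box, with 3 members that passed, they were −0.05 and 0.04. A match is a description of the letters and not of a bound factor.

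Complex I has a catalytic core whose nuclear subunits carry the flavin and iron-sulfur clusters of the matrix arm. The 6 core genes that passed the filter had a median of 0.10, with 4 above 0 and 2 below. NDUFS1, which carries several iron-sulfur clusters, was the lowest, with values of 166 and 123 and a log2 ratio of −0.43. NDUFS8, an iron-sulfur subunit with the highest control level per kilobase of the core (139), was at 110 and 131, a log2 ratio of 0.25. NDUFV1, which binds NADH and flavin, was at 134 and 150, a log2 ratio of 0.16. NDUFS3 was at 65.2 and 58.6, a log2 ratio of −0.15. NDUFS7, which carries the last iron-sulfur cluster before ubiquinone, had 45 and 47 reads, with limits from −0.55 to 0.69.

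The 29 accessory genes of complex I that passed the filter had a median of 0.04, with 16 above 0 and 13 below and none past 1.5-fold. The highest were NDUFB11, a membrane-arm subunit encoded on chromosome X, at 103 and 131, NDUFS6, a zinc-binding subunit, at 99.8 and 127, and NDUFA8, which faces the intermembrane space, at 61.4 and 76.5. Their log2 ratios were 0.34, 0.34 and 0.31. The lowest were NDUFA2 with 259 and 188 reads and limits of −0.74 to −0.18, NDUFA9 with 268 and 196 reads and limits of −0.72 to −0.17, and NDUFB8 at 2.60 and 1.86. For NDUFB8, from 52 and 37 reads, the limits of −1.13 to 0.15 span 0. NDUFS5 had the highest control level per kilobase of the accessory set, 283, with 298 after MILIP siRNA.

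Complex II, succinate dehydrogenase, also works in the citric acid cycle. SDHA, its flavin subunit, was the 1 member past 1.2-fold, with values of 143 and 181 and a log2 ratio of 0.33, limits 0.26 to 0.41. SDHB, the iron-sulfur subunit, was at 56.6 and 50.8, a log2 ratio of −0.15. The membrane anchors were at 137 and 137 for SDHC and at 43.1 and 36.9 for SDHD, log2 ratios of 0.0034 and −0.22. The 4 genes of this small complex therefore lay on both sides of 0, with a median of −0.07.

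The 8 nuclear subunits of complex III had a median of −0.05, with 3 above 0 and 5 below. The highest were UQCRQ, a small membrane subunit, at 56.1 and 74.0, UQCRC1, a core subunit, at 177 and 215, and UQCRB, which lies near the ubiquinone site, at 147 and 170. Their log2 ratios were 0.39, 0.28 and 0.21. UQCRC2, the partner of UQCRC1 in the core, had a ratio of the other sign, −0.19, from 176 and 155. UQCR11 was at 11.6 and 9.50, a log2 ratio of −0.26, and UQCRH, with the highest control level per kilobase of this set (298), was at 180 and 169, a log2 ratio of −0.09. UQCRFS1, the Rieske iron-sulfur protein that hands electrons on to cytochrome c1, was at 315 and 311.

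Levels of the 2 genomes stood far apart, as read per kilobase of transcript. Levels and rankings per kilobase depend on the 1 transcript taken for each gene, of 13566 bases for SDHC and 11819 for NDUFS1. The median control level per kilobase was 2230 for the 13 mitochondrial genes and 67.4 for the 57 nuclear ones. Among mitochondrial genes MT-CO1 had 9625 and MT-CO3 8635, while MT-ND6 had 207, MT-CYB 111, MT-ND5 107 and MT-ATP8 78.9, inside the nuclear range. Nuclear levels per kilobase moved with how much of a transcript other genes overlap. The 32 members free of such overlap had a median of 88.5 in the control, the 23 overlapped in part 45.4, and the 4 of which less than 50% is free 2.94 (NDUFV2, NDUFA7, NDUFB8 and NDUFA11). The levels of these 4 genes are therefore uncertain. Median log2 ratios of these 3 classes were 0.05, 0.0034 and, over 2 genes, −0.19.

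**Figure D4:**
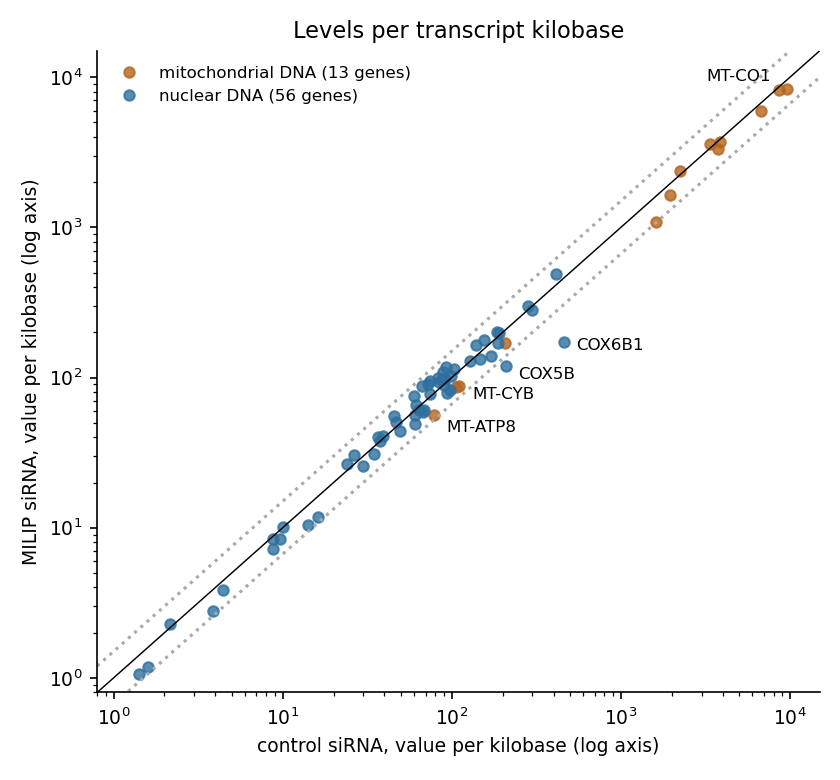
Level per kilobase of transcript in the MILIP siRNA library (vertical log axis) against the control library (horizontal log axis) for 69 of the 70 genes with a value in both, mitochondrial in brown and nuclear in blue. The solid line marks equal levels and dotted lines 1.5-fold without a pseudocount. In both libraries 9 of the 13 mitochondrial genes lie above every nuclear gene, and COX6B1 and COX5B fall below the lower dotted line.

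The ATP synthase, the assembly factors and the genes that maintain and express mitochondrial DNA were not members, and are given as lists. The 18 nuclear genes of complex V, its inhibitor among them, had a median of 0.11, with 13 above 0. Their summed values had a log2 ratio of the other sign, −0.12, beside −0.06 for all genes that passed the filter. ATP5PB, a stalk subunit, was lowest at 127 and 79.1, a log2 ratio of −0.68, followed by the catalytic ATP5F1B at 1082 and 831 (−0.38) and the ring subunit ATP5MC1 at 181 and 142 (−0.35). ATP5ME, ATP5IF1, the inhibitor, and ATP5MK were highest, at 0.33, 0.29 and 0.24, ATP5ME from 35 and 49 reads. Among 10 subunits and isoforms that the names of the members leave out, NDUFAB1, the mitochondrial acyl carrier protein of complex I, was at 97.0 and 58.6 (−0.72) and CYC1, cytochrome c1 of complex III, at 305 and 233 (−0.39). COX7A2L and NDUFA4L2 were at 0.06 and 0.21, and the other 6, most of them muscle, lung or testis isoforms, had no value or a mean below 1.

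Genes of mitochondrial RNA synthesis and processing stood lower than the members. Of the 26 genes 21 lay below 0, with a median of −0.41, and 8 were at least 1.5-fold lower, where 13.8% of all genes were, and none higher. PRORP, which cuts tRNAs from the precursor at their 5′ ends, was at 9.07 and 3.82 (−1.06), FASTKD3 at 15.2 and 7.24 (−0.97) and PNPT1, a nuclease, at 123 and 70.6 (−0.79). Of the PRORP transcript 0% is free of exons of other genes in the annotation used here, so its level and ratio are uncertain. TFAM, which packs mitochondrial DNA and starts its transcription, was at 181 and 116 (−0.63), TFB2M, a transcription factor, at 49.0 and 31.7 (−0.61), and LRPPRC, which stabilises mitochondrial mRNAs, at 473 and 289 (−0.71). MTERF3 and FASTKD1 were the other 2 of the 8, at −0.65 and −0.59. The last 5 were named after their values were seen. POLRMT, the mitochondrial RNA polymerase, also picked after its values were seen, was at 131 and 140 (0.09), and the highest of the list were FASTK (0.42), HSD17B10 (0.13) and MTERF4 (0.12). These genes had a median GC content of 42.9%, and with the trends of GC content and length removed their median was −0.27.

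The 11 genes of mitochondrial DNA maintenance had a median of −0.45 and held genes of both directions. TWNK, the helicase, had 1498 and 839 reads (−0.82), POLG2, the accessory subunit of the DNA polymerase, at 24.6 and 14.1 (−0.76) and RRM2B, a p53-induced ribonucleotide reductase subunit, at 93.9 and 65.3 (−0.52). TOP1MT, a topoisomerase, was at 32.3 and 52.7 (0.69), TK2, a thymidine kinase, at 318 and 497 reads (0.62) and DGUOK at 34.9 and 41.3 (0.24). With the GC trend removed the median was −0.18.

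Among nuclear regulators of the chain, 8 of 10 had values, with a median of −0.23 and 6 below 0. PPARGC1B, a coactivator, was at 19.9 and 10.5 (−0.87), PPRC1, a related coactivator, at 105 and 73.6 (−0.51) and ESRRA, a nuclear receptor, at 67.1 and 55.8 (−0.26). GABPB2 (0.35), YY1 (0.05) and GABPA (−0.15) were highest, and PPARGC1A and ESRRG were listed at 0 in both libraries.

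The median of the assembly factors was below 0 for each complex, but that of complex II was 0.031 with the GC trend removed, and 7 of 17 genes of complex I lay above 0. The medians were −0.10 for 17 genes of complex I, −0.07 for 4 of complex II, −0.23 for 6 of complex III and −0.12 for 18 of complex IV. COA7, a complex IV factor of the intermembrane space, was lowest of all, at 58.2 and 26.5 (−1.11), followed in its list by COX15, which makes heme A, at 67.2 and 41.9 (−0.67) and COA4 at 92.4 and 58.1 (−0.66), and SURF1 (0.35), COA5 (0.20) and COX14 (0.17) were highest. For complex III, BCS1L, which inserts the Rieske protein, was at 42.0 and 24.2 (−0.77) and LYRM7, a chaperone of the Rieske protein, had 560 and 330 reads (−0.72). UQCC3 and TTC19 were at −0.31 and −0.15, UQCC1 at −0.08 and UQCC2 at 0.17. For complex I, NDUFAF4 was at 30.4 and 19.0 (−0.65), TMEM126B at −0.57 and ECSIT at −0.34, and NDUFAF1 (0.49), ACAD9 (0.39) and DMAC1 (0.26) were highest. For complex II, SDHAF3, SDHAF4, SDHAF2 and SDHAF1 lay between −0.18 and 0.17.

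The electron carriers, cytochrome c and 13 genes of coenzyme Q synthesis and handling, had the highest median of the lists, 0.17, with 11 of 14 above 0. PDSS2 and PDSS1, the 2 subunits of the enzyme that makes the side chain of coenzyme Q, lay at opposite ends, PDSS2 at 8.67 and 18.5 (1.01) and PDSS1 at 19.7 and 10.6 (−0.83). COQ2 (0.50) and COQ8B (0.39) followed at the upper end, and COQ8A (−0.38) and COQ3 (−0.05) at the lower.

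**Figure D5:**
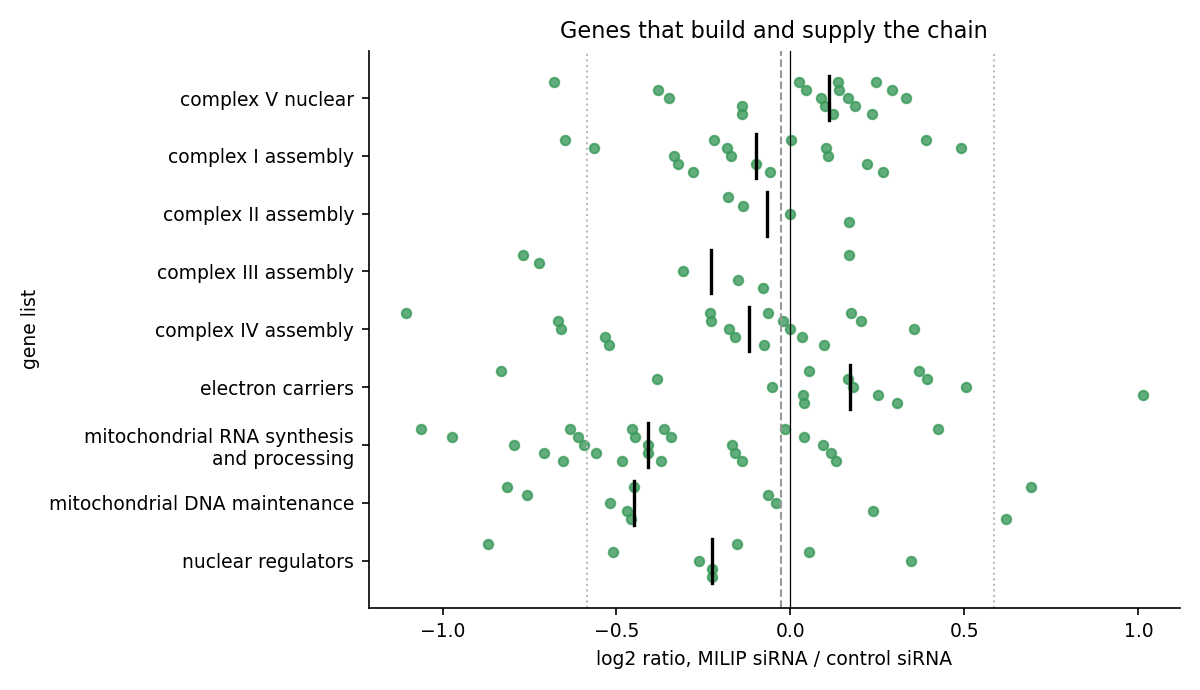
Log2 ratio of MILIP siRNA over control siRNA (horizontal axis) for the genes of 9 lists that supply, build or regulate the chain (vertical axis). Each point is 1 gene, black bars are medians, the dashed line is the median of all genes (−0.03) and dotted lines mark 1.5-fold. Genes of mitochondrial RNA synthesis and processing have a median of −0.41, those of DNA maintenance −0.45, and the electron carriers 0.17.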

How the data were processed

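RNA of A549 cells was sequenced from 1 library of each condition. Per the submitters' processing notes, TopHat2 2.0.12, HTSeq 0.6.1 and build hg38 were used, while the annotation, strand use, counting mode and scaling are not given in the sources used here. Values deposited by the authors are on a CPM scale, in columns named as read counts, beside a fold change, p-value, q-value and call of change, which were not used. Values above 0 are whole multiples of 1 step per library, to within 6.97e-05 of a read, and were divided by it to give reads. The sums of the CPM values deposited were 1016809 and 978499. Log2 ratios used a pseudocount of 1 and the 13521 genes whose mean reached 1, of which 13365 have a symbol, 69 bear names of the submitters' making and 128 stand at 0 in 1 library. No test and no p-value was computed, and p-values would need replicates. Transcript length, GC content and exon overlap come from GENCODE release 29 (GRCh38), with 1 transcript per gene, and GC content was available for 99.1% of genes. Levels between genes were compared per kilobase of that transcript.

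The members and gene lists were chosen with earlier results of these data known. Genes named were the 13 mitochondrial genes, complex II, the 3 highest and 3 lowest and the highest per kilobase of each nuclear set, members past 1.5-fold or listed at 0, and the 3 highest and 3 lowest of each list, with those past 1.5-fold in lists of up to 20 genes. Some results are not reported here. Others were named as context for a pair or an enzyme, after their values were seen. Alternatives were a pseudocount of 0.1, 3 other scalings, other filters, folds of 1.2 and 2, the mean or sum of a list, removal of overlapping genes, and removal of GC and length trends by the median of 50 bins. Calculations were tested on simulated data. Software was pandas 2.3.3, numpy 2.4.6, matplotlib 3.10.9 and scipy 1.17.1 under Python 3.11.15.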

Additional observations from a re-analysis of the deposited data

How the results depend on the processing

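The cause of the differences between settings was not tested. Under median-of-ratios scaling, scaling by listed reads, and by listed reads outside mitochondrial DNA, the mitochondrial median was −0.18, −0.15 and −0.16, that of mitochondrial complex I −0.21, −0.18 and −0.18, and that of mitochondrial complex IV −0.15, −0.12 and −0.13. With the GC trend removed, and with GC and length trends removed, the mitochondrial median was −0.11 and −0.13, mitochondrial complex I −0.10 and −0.12, mitochondrial complex IV −0.11 and −0.15, nuclear complex I core −0.098 and −0.078, complex II 0.060 and 0.068, nuclear complex III 0.065 and 0.026, subunits outside the members −0.28 and −0.36, and DNA maintenance −0.18 and −0.20. So the signs of the medians of complexes II and III and of the complex I core turned, as did those of nuclear complex I (−0.038 with both trends removed), complex II assembly (0.031 with the GC trend removed), nuclear complex III by listed reads (0.0073, or 0.0041 outside mitochondrial DNA) and the nuclear members by their mean (−0.030). With the GC trend alone removed, mitochondrial complex V was at −0.11 and the mitochondrial rRNAs at 0.0025. With both trends removed, RNA synthesis and processing was at −0.27. Without the overlapping pairs the mitochondrial median was −0.18, and by summed values −0.13. Subunits outside the members were at 0.062 without a filter and −0.39 with a mean of at least 5. Of the 70 members 9 were higher and 14 lower at 1.2-fold, beside 26.4% and 31.1% of all genes. At 2-fold 0 were higher and 1 lower, and the share of all genes at 2-fold was not computed. With the GC trend removed, and with both trends removed, 0 members were higher and 2 lower at 1.5-fold. Among the 13398 genes with a GC content, 1455 and 1493 were then higher and 1624 and 1548 lower.

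The difference between the 2 genomes stayed below 0, between −0.24 and −0.14, under other scalings, pseudocounts, filters and trends, by the mean and with overlapping genes left out, and was −0.12 by summed values, and 59 of 70 members kept their sign under each scaling, pseudocount, filter and trend setting. The share of mitochondrial reads by summed values equals that by reads by construction. Leaving out members under 50% free of other genes (nuclear median 0.04), counting NDUFA4 in complex IV, and taking the difference between genomes by summed values or without overlapping genes were chosen after seeing the data. No paired analysis was possible because there is a single library of each kind, and none could be left out. Variation between cultures cannot be measured, reads below 20 are not seen, and genes with few reads, such as NDUFS7, NDUFB8 and ATP5ME, have wide limits.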
